A study of Caenorhabditis elegans with 2 samples.

Results

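The genes described here encode the subunits of the C. elegans proteasome and the enzymes that pass ubiquitin to other proteins. They were taken from the WBcel235 annotation as every protein-coding gene whose symbol starts with pas-, pbs-, rpn-, rpt- or ubc-, which gave 54 genes of 19973 on the nuclear chromosomes. Binding of the homeodomain factor CEH-34 near them was read from ChIP-seq peaks of 2 biological replicates of 1 group. The hermaphrodite worms of strain OP524 carried the unc-119(tm4063) allele and the integrated transgene wgIs524, which encodes CEH-34 with a GFP-FLAG tag at its end. Whole late embryos were collected 3.5 hours after egg bleaching and precipitated with an anti-GFP antibody. Both replicates came from this one transgenic line, and no other genotype, stage or treatment was compared. Because whole embryos were used, binding in few cells and weaker binding in many cells cannot be told apart, and no cell type is assigned to any peak.

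Ubiquitin is a small protein that is attached to other proteins in a relay. An activating enzyme hands it to a conjugating enzyme, and a ligase helps the conjugating enzyme place it on the target. A chain of ubiquitin marks the target for the proteasome, a barrel-shaped core particle that cuts proteins, capped by a regulatory particle with a base that unfolds them and a lid that removes the ubiquitin. The proteasome is used in all cells, whereas CEH-34 is known in worms for its role in neurons of the pharynx, the feeding organ. Expression of the single genes was not examined here.

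The pooled list of candidate peaks held 29417 peaks, replicate 1 alone had 21725 and replicate 2 had 23509. The authors' thresholded list, cut by how repeatably peaks rank in the replicates, held 2508 peaks, 2490 of them on nuclear chromosomes. A gene counted as bound if the summit of a thresholded peak was at most 1000 bp away from an annotated 5′ end of one of its coding transcripts. Signal value is the authors' own height of a peak on a scale set for each list, so it is compared here only within a list. The thresholded peaks are the strongest of the pooled list, so a single peak among them need not rank alike in both replicates. Their signal on nuclear chromosomes started at 76.5.

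CEH-34 peaks lay near 15 of the 54 genes (27.8%, 95% Wilson interval 17.6 to 40.9), while 8.65% of all protein-coding genes were bound. They were spread over the parts of the machine. Of 14 core particle genes, 3 were bound (21.4%), as were 2 of 10 base genes (20%), 5 of 9 lid genes (55.6%) and 5 of 21 conjugating enzyme genes (23.8%). The symbol rule leaves dss-1, a small lid subunit gene that was not bound, out of the lid count. The lid share was the highest, and its interval of 26.7% to 81.1% overlapped those of the core particle (7.57% to 47.6%), the base (5.67% to 50.98%) and the conjugating enzymes (10.6% to 45.1%). From the strongest candidates of 1 replicate, the lid had 3 bound genes without replicate 2 and 4 without replicate 1, and the base had 1 without replicate 1. The intervals treat genes as separate draws and cover counting error only, and no test of the differences between these small groups was made.

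**Figure D1:**
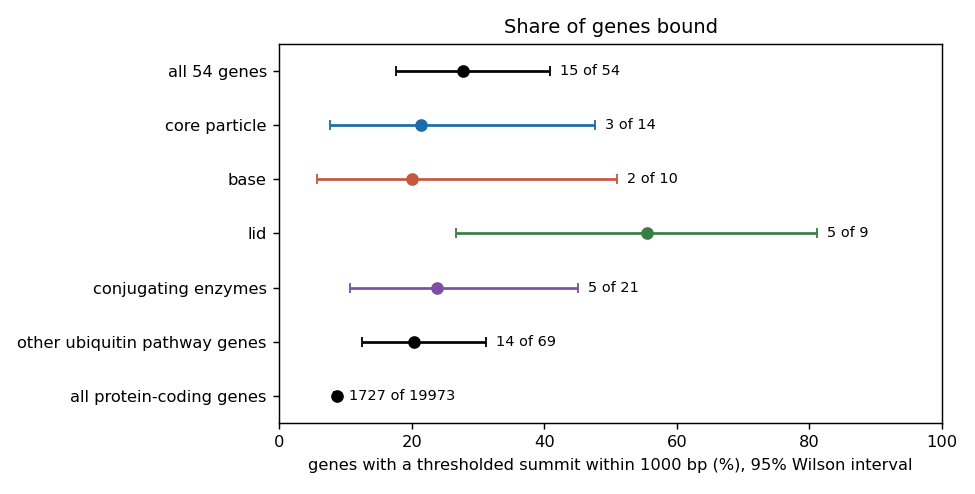
Share of genes with a thresholded summit within 1000 bp (horizontal axis, %), with 95% Wilson intervals as bars. All 54 genes are at 27.8%, the lid is highest at 55.6% with overlapping intervals, and all protein-coding genes are at 8.65%.

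The sequences at 7 of the summits are printed as examples from each part of the machine, with and without GCGC, and they are not the strongest of every part. Each runs from 50 bp before to 50 bp after the summit, 101 bases on the plus strand of WBcel235 (ce11 coordinates), from the RefSeq assembly. Capitals mark each GCGC, a sequence that was chosen after these windows had been read.
rpn-3, chrIII:8447099-8447199: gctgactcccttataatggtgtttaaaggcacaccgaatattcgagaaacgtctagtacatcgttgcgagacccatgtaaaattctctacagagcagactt
rpn-7, chrIV:9316204-9316304: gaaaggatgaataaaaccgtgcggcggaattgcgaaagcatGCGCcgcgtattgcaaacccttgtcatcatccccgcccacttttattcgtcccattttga
rpn-11, chrII:4044509-4044609: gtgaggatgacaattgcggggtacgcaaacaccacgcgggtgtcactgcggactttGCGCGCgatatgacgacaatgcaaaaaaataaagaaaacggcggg
rpt-2, chrV:6017774-6017874: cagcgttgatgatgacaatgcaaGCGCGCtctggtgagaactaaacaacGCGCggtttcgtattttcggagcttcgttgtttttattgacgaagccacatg
pbs-3, chrII:4955525-4955625: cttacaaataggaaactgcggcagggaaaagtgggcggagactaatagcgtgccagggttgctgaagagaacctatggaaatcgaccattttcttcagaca
ubc-6, chrII:7478826-7478926: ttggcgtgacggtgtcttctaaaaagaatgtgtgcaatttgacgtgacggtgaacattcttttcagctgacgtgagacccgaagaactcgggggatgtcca
ubc-9, chrIV:4650763-4650863: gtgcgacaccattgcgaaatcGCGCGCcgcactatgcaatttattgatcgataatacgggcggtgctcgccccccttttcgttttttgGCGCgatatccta

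The lid held the strongest peak of all 54 genes. It lay upstream of rpn-3, which encodes a structural lid subunit, with a signal of 192 and rank 393 among the nuclear thresholded peaks. Its signal was 100.3 in replicate 1 and 92.6 in replicate 2, each on its own list's scale, and the summits of the replicates were 17 bp apart. The summit at chromosome III position 8447149 was 204 bp upstream of rpn-3 and 240 bp upstream of hsp-110, a chaperone gene that is read in the opposite direction. The next lid gene was rpn-7, with a pooled signal of 142, and signals of 70.7 in replicate 1 and 68.0 in replicate 2. Its summit was 377 bp upstream of rpn-7 and only 39 bp upstream of the divergent gene F49C12.9. Both peaks were thus found at nearly the same place in each replicate, and both are shared with a second gene.

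The other bound lid genes had weaker peaks that the replicates ranked differently. The peak at rpn-11, the gene of the lid's deubiquitinating enzyme, had a pooled signal of 101.0 and its summit just 13 bp upstream of the 5′ end. Its signal was 28.8 in replicate 1, rank 4243 of that list, and 72.3 in replicate 2, rank 946. The peak at rpn-9 went the other way, with 59.2 in replicate 1 (rank 1102) and 37.1 in replicate 2 (rank 3181), and a pooled signal of 92.2. The partner of RPN-11 in the lid, RPN-8, is encoded by rpn-8, whose summit (signal 91.1) differed from all others in lying 657 bp downstream of the 5′ end. Its signal was 33.2 in replicate 1 and 54.9 in replicate 2. That summit was in an intron of rpn-8 and 21 bp from the snoRNA gene R12E2.17, and rpn-8 was no longer bound when summits near structural RNA genes were left out. Another candidate of rpn-8, upstream of the 5′ end, had a pooled signal of 63.8, under the threshold. In replicate 1 the upstream candidate was the stronger, at 34.5 against 33.2. The 4 lid genes that were not bound all had candidate peaks: rpn-12 at 47.5, rpn-6.1 and its paralogue rpn-6.2 both near 34 (34.4 and 34.3), and rpn-5 at 34.0. RPN-6.1 is known for joining the lid to the core particle.

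In the base, binding was seen at 2 of the 6 ATPase genes, rpt-1 and rpt-2, whose products help to unfold proteins before they enter the barrel. The rpt-1 peak had a pooled signal of 106 with its summit 89 bp upstream, and no other coding 5′ end lay in its window. Its signal was 54.3 in replicate 1 and 48.6 in replicate 2. The rpt-2 peak had a pooled signal of 99.3, with 53.7 in replicate 1 and 42.1 in replicate 2, and its summit lay between rpt-2 (155 bp) and aps-1 (146 bp), which encodes a small subunit of a clathrin adaptor. None of the 4 base genes without ATPase activity was bound: the ubiquitin receptor gene rpn-13 had a candidate at 61.7 and the scaffold gene rpn-1 one at 21.5, while rpn-2 and the ubiquitin receptor gene rpn-10 had none. Of the other ATPase genes, rpt-6 (25.7) and rpt-4 (24.8) had weak candidates, and rpt-3 and rpt-5 had none in any list. A count of 0 among 4 genes allows a share of up to 49.0% by its Wilson interval.

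The core particle is built from 7 alpha subunits (pas genes), which form the gates, and 7 beta subunits (pbs genes), some of which do the cutting. Bound genes were pas-1, pas-4 and pbs-3. The peak at pbs-3 lay 148 bp upstream with a pooled signal of 94.7, and its summit is inside an exon of the neighbouring gene ulp-2. Its signal was 58.2 in replicate 1 and 39.6 in replicate 2, and the 2 summits were 4 bp apart. The pas-1 peak had the highest signal of the core (114, with 51.9 in replicate 1 and 54.4 in replicate 2), but it lay 810 bp upstream of pas-1 and 124 bp upstream of rpoa-12, an RNA polymerase I subunit gene on the same strand. The pas-4 peak was the weakest of the 15, with a signal of 78.7, and shared its window with rpb-3, an RNA polymerase II subunit gene 154 bp away in the opposite direction. It had a summit of replicate 1 within 100 bp (53.6), and the strongest replicate 2 candidate of pas-4 (27.9, rank 5448) was farther away. The genes of the 3 cutting subunits, pbs-1 (46.8), pbs-2 (66.5) and pbs-5 (49.0), had candidates under the threshold and were not bound. Of all core genes, only pas-7 had no pooled candidate, and the other candidates, at pas-2, pas-3, pas-5, pas-6, pbs-4, pbs-6 and pbs-7, ranged from 24.0 to 51.3.

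Among the conjugating enzymes, ubc-6, ubc-9, ubc-12 and ubc-25 were bound genes. The ubc-6 peak had a pooled signal of 147, with 50.3 in replicate 1 and 95.8 in replicate 2, and lay 311 bp from ubc-6 and 339 bp from the divergent gene aka-1. The enzymes that carry relatives of ubiquitin were also bound, ubc-12, the NEDD8-conjugating enzyme, and ubc-9, the SUMO-conjugating enzyme. The ubc-12 peak (107, with 60.2 in replicate 1 and 44.5 in replicate 2) was nearer to rbm-3.2, at 30 bp, than to ubc-12, at 269 bp. The ubc-9 peak (89.5, with 40.6 in replicate 1 and 54.2 in replicate 2) had no other coding 5′ end in its window. Last, ubc-25 had a peak of 80.6, with 28.96 in replicate 1 (rank 4194) and 57.2 in replicate 2 (rank 1449).

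The threshold passed close to one more enzyme. The strongest candidate at ubc-7 had a signal of 75.6, just under the 76.5 at which the list began, and pas-4 at 78.7 and ubc-25 at 80.6 were just over it. Of the other enzymes with a candidate, ubc-17 and ubc-19 had signals of 50.2 and 50.02, and ubc-14, ubc-15, ubc-16, ubc-18 and ubc-20 were between 19.3 and 29.7. No pooled candidate was found at ubc-1, the gene of the RAD6-type enzyme, at ubc-8, at ubc-13, whose product builds chains with the variant UEV-1, or at ubc-21, ubc-22, ubc-23, ubc-24 and ubc-26. Of these 8, only ubc-8 had a candidate in a replicate's own list, with a signal of 13.4 in replicate 1 and 16.1 in replicate 2.

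**Figure D2:**
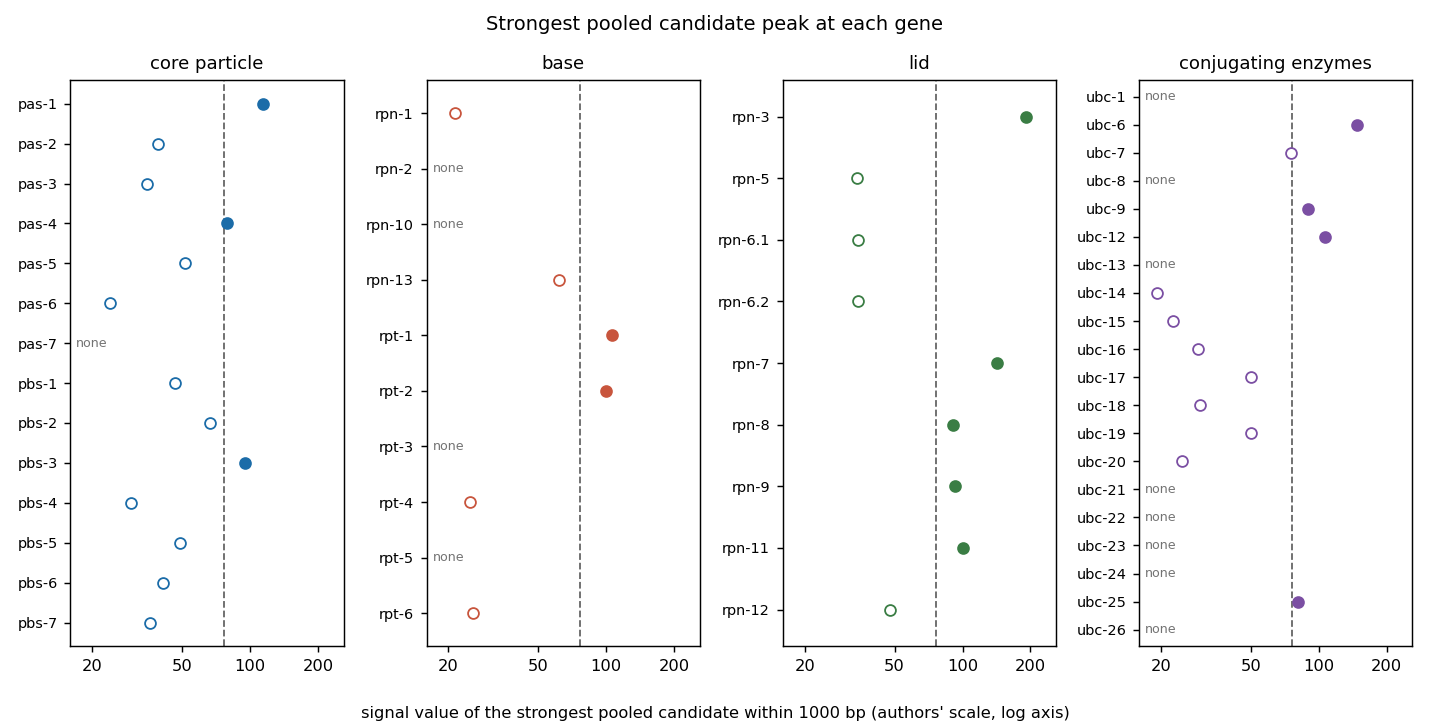
Signal value of the strongest pooled candidate within 1000 bp of 53 of the 54 genes (horizontal log axis, authors' scale), by part. Filled points are bound genes, open points candidates only, "none" marks genes with no pooled candidate, and the dashed line is the lowest thresholded signal, 76.5, with ubc-7 just left of it at 75.6.

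Candidate peaks of any strength were common near these genes. A pooled candidate lay within 1000 bp of 41 of the 54 (75.9%), against 48.16% of all protein-coding genes. The share was 9 of 9 in the lid, 13 of 14 in the core particle, 6 of 10 in the base and 13 of 21 among the conjugating enzymes. Replicate 1 alone had candidates at 38 of the 54 genes, against 41.6% of all genes, and replicate 2 alone at 39, against 43.4% of all genes. Both replicates had one at 35 genes, against 29.9% of all genes, and 12 genes had none in any list. Among genes that had a pooled candidate, 15 of the 41 were bound (36.6%), against 18.0% of all genes with a candidate. The median of the strongest pooled signals was 50.02 for the 41 genes and 34.7 for all genes with a candidate.

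Although often bound, these genes did not hold the strongest peaks of the list. Of the 15 peaks, 4 were above the median signal of the nuclear thresholded peaks (114.4), those at rpn-3, ubc-6 and rpn-7 among them, and the median of the 15 was 101.0. When only the stronger 1245 peaks were kept, 4 of the 54 genes were bound (7.41%), against 4.62% of all genes. The −log10 of the q-value ran from 2.33 to 2.95 over the 15 peaks and did not follow the signal. It was highest at rpn-3, the strongest peak, but 2.73 at pas-4, the weakest, and lowest at ubc-6.

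The replicates placed the summits at nearly the same bases but ranked the peaks less alike. At 14 of the 15 genes both replicates had a summit within 100 bp of the thresholded one, and 2379 of all 2490 nuclear peaks had both (95.5%). Both replicates had one at 11 of the 15 within 50 bp and at 15 within 200 bp. The distance between the replicates' summits had a median of 23.5 bp at these 14 genes, from 0 to 79 bp, and 25 bp over all such peaks. From the 2508 strongest candidates of each replicate alone, replicate 1 gave 13 bound genes of the 54 (24.1%), against 8.88% of all genes. Replicate 2 also gave 13, against 8.31% of all genes. Of the 15 genes, 12 were bound with the strongest candidates of replicate 1 and 11 with those of replicate 2, and 8 in both (53.3%), against 75.04% of all bound genes. Among the 8 were pas-1, rpn-3, rpn-7, rpt-1, ubc-6, ubc-9 and ubc-12.

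**Figure D3:**
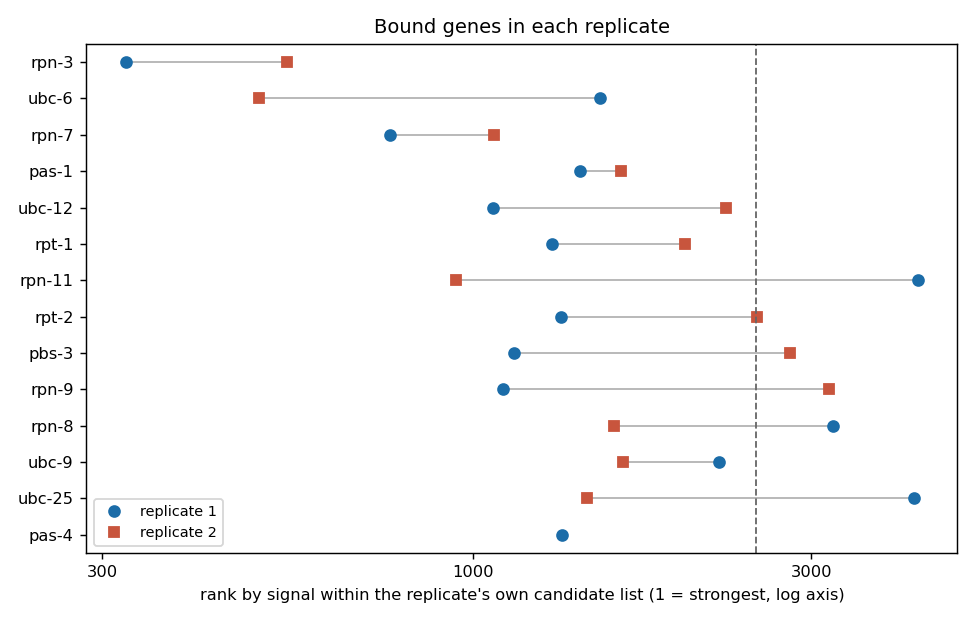
Rank by signal (log axis, 1 is strongest) of the summit within 100 bp in the list of replicate 1 (circles) and replicate 2 (squares) at 14 of the 15 bound genes, ordered by the pooled rank. The dashed line marks rank 2508; rpn-11 stands at 4243 in replicate 1 and 946 in replicate 2, and pas-4 has such a summit in replicate 1 only.

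Most summits lay a short way upstream. Of the 15, 14 were upstream of the gene's 5′ end (93.3%), against 86.6% of all bound genes, and 11 were between 100 and 400 bp upstream (73.3%), against 46.7%. The median position was 231 bp upstream, against 230 bp for all bound genes. In C. elegans the annotated 5′ end is often the site where a leader sequence is joined to the RNA and not the start of transcription, so these distances are from annotated ends.

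**Figure D4:**
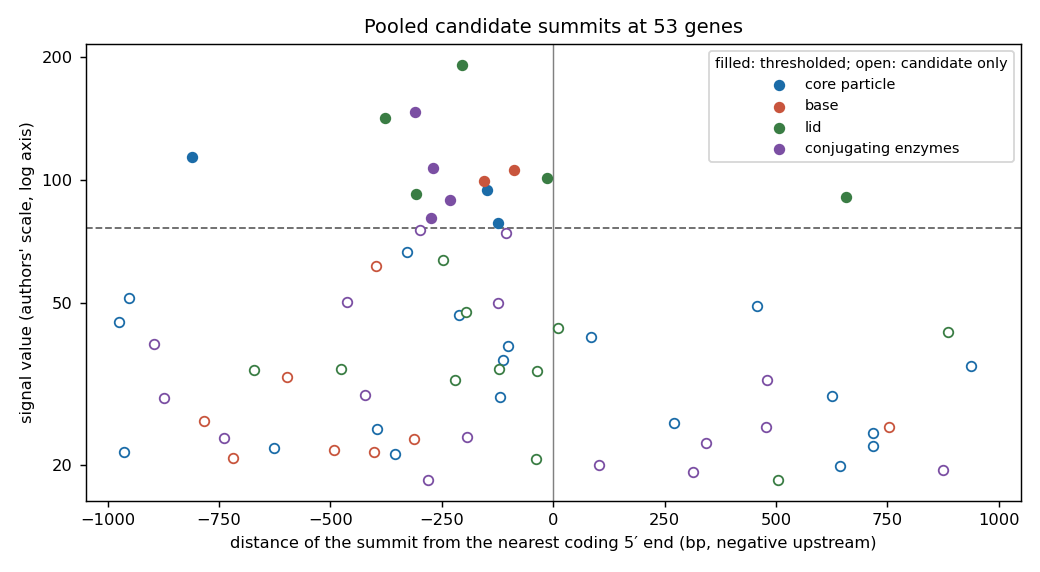
Position of every pooled candidate summit within 1000 bp of 53 of the 54 genes relative to the nearest coding 5′ end (horizontal axis, bp, negative is upstream) and its signal value (vertical log axis). Filled points, 14 thresholded summits, lie upstream except that of rpn-8 at 657 bp, and open points are candidates below the threshold.

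Sharing of a summit with a second gene was common here, as it was among all bound genes. The summit lay in the window of a second coding 5′ end at 9 of the 15 genes (60.0%), against 49.2% of all bound genes, and at 7 of the 9 that second gene was on the opposite strand. The other gene was the nearer one at pas-1, rpn-7, rpt-2 and ubc-12, and these 4 were not bound when each summit was given only to the gene with the nearest 5′ end. Apart from rpn-8 the summits were outside gene bodies or in a neighbour, with 11 of the 15 between genes, pbs-3 in an exon of ulp-2, and pas-4 and rpt-2 in exons of the noncoding RNA genes C36B1.16 and F29G9.10. At the 9 genes with a shared window the peak therefore cannot be assigned to the gene alone from position, and at the other 6 no second coding 5′ end lay in the window.

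The genes also sit in an unusual neighbourhood, which was looked at after the peaks had been seen. A divergent protein-coding gene starts within 1000 bp upstream of 28 of the 54 (51.9%), against 17.2% of all genes, and a gene on the same strand ends within 500 bp upstream of 13 (24.1%), against 17.7%. Close genes on the same strand are often read as one operon in worms, though operons were not annotated in the sources used here. Of the 28 genes with a close divergent neighbour, 8 were bound (28.6%), against 18.9% of all such genes. With a close neighbour on the same strand 4 of 13 were bound (30.8%), against 4.62%. With no close neighbour 3 of 12 were bound (25%), against 7.03%, and the single gene whose 5′ end is inside another gene, rpt-4, was not bound, against 6.99% of such genes. The shares of the 54 genes ran from 25% to 30.8% over the 3 arrangements that hold more than 1 of them. These arrangements hold only 12 to 28 of the genes each. The differences were not tested, nor was any link between neighbourhood and binding.

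**Figure D5:**
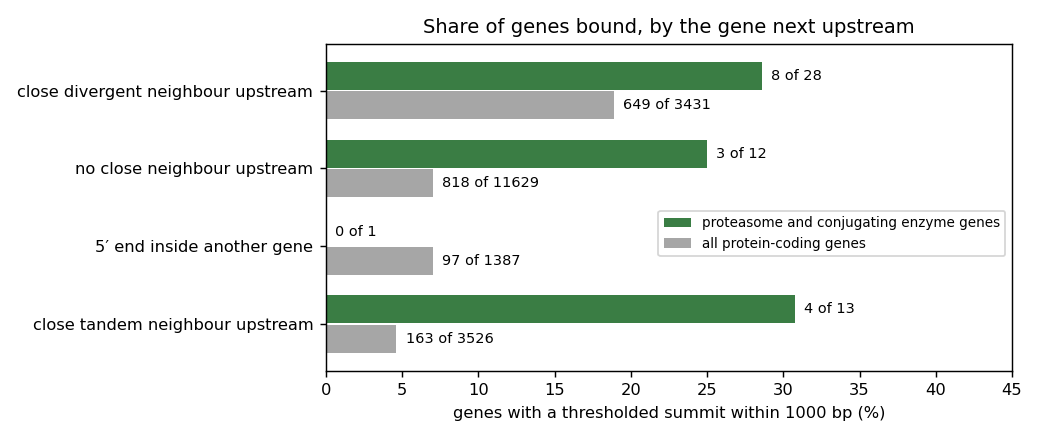
Percent of genes bound by the position of the gene next upstream, for the 54 genes (green) above all protein-coding genes (grey), with counts beside the bars. The green bars are at 28.6%, 25%, 0 of 1 and 30.8%, and the grey bars at 18.9%, 7.03%, 6.99% and 4.62%.

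DNA motifs were sought in the 101 bases around each of the 15 summits, on either strand. The sine oculis core TGATAC, a sequence known from relatives of CEH-34, was at none of the 15, against 3.21% of all nuclear thresholded summits and 3.18% of windows of the same length 200 bp upstream of every gene. The GA repeat GAGAGA was at 1 of 15 (6.67%, ubc-25), against 28.8% of all thresholded summits and 7.48% of promoter windows. The MEF3-type site TCAGGTT was at pas-4 alone, against 1.53% of all thresholded summits and 1.30% of promoter windows. The E-box CAGCTG was at ubc-6 alone, against 3.94% and 1.71%. Within 100 bp the core TGATAC was at 2 of the 15 (13.3%), against 6.10% of all thresholded summits, and GAGAGA at 3 (20%), against 44.9%. So the 15 windows held fewer GA repeats than the thresholded list, although with 15 summits one more or one less changes the share by 6.67 points.

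Short runs of G and C were common at these summits. The letters GCGC, capitals in the printed windows, were at 10 of the 15 summits (66.7%), against 40.0% of all thresholded summits, 17.5% of the other pooled candidates and 12.2% of promoter windows. They were at 4 of the 5 lid genes, all but rpn-3, at both base genes, at pas-4 alone in the core particle, and at 3 conjugating enzyme genes, ubc-9 and ubc-12 among them. The median share of G and C in the windows was 48.5% at the 15 summits, 49.5% over all thresholded summits and 33.7% in promoter windows. The transcription factor SKN-1 is known to switch on proteasome genes in worms. Its type of site, ATGACA or ATGATA followed by 2 letters that are each A or T, was searched too, after the windows had been read. It was at the rpn-11 and rpt-2 summits (13.3%), against 1.93% of all thresholded summits and 5.84% of promoter windows. In the 500 bases upstream of the 5′ end it was at 16 of the 54 genes (29.6%), against 25.2% of all genes, and at 3 of the 15 bound genes (20%). By kind, that was 13 of 33 proteasome subunit genes (39.4%) and 3 of 21 conjugating enzyme genes (14.3%). Of the 2 genes with these letters at the summit, rpt-2 was among the 16 and rpn-11 was not. The ATGATA form shares letters with the TGATAC core, and neither of the 2 summits with SKN-1-type letters held that core. GCGC and the SKN-1 type were chosen after the sequences had been seen, and both are letters in a window and not shown sites.

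Other genes of the ubiquitin pathway were bound at a share between that of these genes and the background. Of 69 genes in a list of ubiquitin, activating enzymes, ligases, unfolding factors and deubiquitinating enzymes, 14 were bound (20.3%, 95% Wilson interval 12.5 to 31.2). The list was chosen with earlier results of these data known. Its interval overlapped that of the 54 genes, 17.6 to 40.9, and the difference was not tested. Several had stronger peaks than any of the 54. The HECT ligase gene eel-1 had a pooled signal of 509 (244 in replicate 1 and 263 in replicate 2), and cdc-48.1, the gene of the ATPase that pulls ubiquitinated proteins out of complexes, had 464 (241 in replicate 1 and 221 in replicate 2). The conjugating enzyme gene let-70, which the symbol rule leaves out, had 285 at 787 bp upstream. It was followed by math-33 (192), a deubiquitinating enzyme gene, uba-5 (171), which activates the ubiquitin-like UFM1, and ufd-3 (164).

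By class, binding was found at 2 of 6 genes of ubiquitin and its relatives, the ubiquitin fusion gene ubq-2 (76.6) and the SUMO gene smo-1 (91.5), and at 1 of 6 genes of activating enzymes. It was found at 2 of 5 conjugating enzymes and variants outside the symbol rule, let-70 and uev-1 (95.6), and at 3 of 21 ligase genes, with ufd-2 (113) and wwp-1 (112) besides eel-1. Unfolding and shuttling factors had 3 of 9, with cdc-48.2 (86.9) as the third, and deubiquitinating and related enzymes had 3 of 18, with otub-1 (97.3) and usp-48 (81.8) besides math-33. The ubq-2 signal was just over the 76.5 at which the thresholded list began. The summits at cdc-48.2 and otub-1 were 929 bp and 989 bp away, near the edge of the window. Sharing of summits with other genes was not counted for these pathway genes. None of the 4 further genes linked to the proteasome was bound, and these included dss-1, a small lid subunit gene, and skn-1.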

How the data were processed

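ChIP-seq peak lists of 2 biological replicates were analysed. Per the deposited file lists, candidate peaks and background were called for each replicate and for the pooled alignments, and IDR (irreproducible discovery rate) thresholding of those 3 lists gave the thresholded list. No aligner or peak caller is given in the sources used here. Each peak carries the authors' signal value, on a scale of its own in every list, and the authors' −log10 of a q-value. Read depth and the control named in the labels were not analysed here.

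Only ce11 lists were used. Genes came from Ensembl release 115 (WBcel235) and sequences from RefSeq. The 12 mitochondrial genes were left out. All genes of the symbol rule could be named. Base genes were rpt-, rpn-1, rpn-2, rpn-10 and rpn-13, and other rpn- genes were lid. One conjugating enzyme gene is counted in the shares but not reported here by itself. All shares are counts, with Wilson intervals in places (Python 3.11.15, scipy 1.17.1), and no test between groups was possible with 1 group. The code of the bound call was tested on simulated data, summits at known distances, which bears on the code and not on the peaks. Members, gene lists and alternatives were chosen with earlier results of these data known.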

Additional observations from a re-analysis of the deposited data

How the results depend on the processing

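Among the 54 genes the count bound stayed within 1.5 times its value of 15 under 7 of the 9 alternatives, from 11 when each summit was given only to the nearest 5′ end to 19 with a 2000 bp window, which added pbs-2, pbs-5, rpt-6 and ubc-8. It was 4 with the stronger 1245 peaks (0 core particle, 0 base, 2 lid and 2 conjugating enzyme genes, and 922 of all genes, 4.62%) and 41 with all pooled candidates (13 core particle, 6 base, 9 lid and 13 conjugating enzyme genes, and 9619 of all genes, 48.16%). With a 2000 bp window 5 core particle genes were bound, and with the nearest 5′ end only 1 base gene was. Leaving out replicate 1 or replicate 2 gave 13 bound genes each way. In these 2 settings the core particle had 2 to 4 bound genes, the base 1 to 2, the lid 3 to 4 and the conjugating enzymes 4 to 6. The base had 1 bound gene without replicate 1 and the lid had 3 without replicate 2. Without replicate 1 the genes lost were pas-4, pbs-3, rpn-9 and rpt-2 and those gained pas-5 and ubc-7, and without replicate 2 the genes lost were rpn-8, rpn-11 and ubc-25 and pbs-2 was gained. The share of all genes bound, 8.65%, was 6.39% with a 500 bp window, 12.4% with 2000 bp, 6.52% with the nearest 5′ end, 7.95% with the most upstream 5′ end and 8.11% without summits near structural RNA genes. Within 25 bp of the summits TCAGGTT and GAGAGA were at 0% of the 15. The depth behind each signal is unknown, and with 9 to 21 genes in a part a single gene moves its share by several points.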
